A study of Mus musculus with 14 samples.

Results

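The genes of the major histocompatibility complex (MHC) and of antigen presentation were followed through sorted stem cells of mouse back skin. They were taken as every gene of the RNA-seq count table whose symbol starts with H2-, plus B2m, Nlrc5, Ciita, Cd74, Tap1, Tap2, Tapbp, Tapbpl, Psmb8, Psmb9, Psmb10, Psme1, Psme2, Erap1, Calr and Pdia3, a rule on gene names that was set with earlier results of these data known. This gave 60 of 47729 genes, and 48 of them lie on chromosome 17 in the RefSeq gene table of GRCm38.p6. Hair follicle stem cells (HFSC) were sorted from female mice as lineage-negative, integrin α6-high cells with CD34 and without Sca1, and epidermal stem cells (EpdSC) as lineage-negative, integrin α6-high cells with Sca1 and without CD34. Mice were 2 months (young) or 24 months (aged) old. Each population and age had 2 RNA-seq libraries and 1 ATAC-seq library, which counts transposase insertions and so measures open chromatin. Each age also had 1 single-cell library (10x) of lineage-negative, integrin α6-positive skin epithelium. The labels give the strain as C57B8 in one field and as C57B6 in another, and name no genotype, transgene or treatment other than age.

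MHC class I molecules carry peptides from inside the cell to its surface, where CD8 T cells read them. A heavy chain (H2-K1, H2-D1 and the class Ib genes of the H2-Q, H2-T and H2-M groups) pairs with the light chain B2m. The immunoproteasome subunits Psmb8, Psmb9 and Psmb10 and the activator subunits Psme1 and Psme2 shape the peptides, the transporter Tap1 and Tap2 moves them into the endoplasmic reticulum, Erap1 trims them, and Tapbp, Tapbpl, Calr and Pdia3 help to load them. Nlrc5 is the transactivator of class I genes, and Ciita that of class II genes. Class II molecules (H2-Aa, H2-Ab1, H2-Eb1) present peptides taken up from outside to CD4 T cells, with the invariant chain Cd74 and the loading factor H2-DM. In skin, Langerhans cells are known for high class II levels, and the hair follicle bulge, where HFSC reside, is known as a site of low class I.

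Promoters of 6 members are printed because their genes follow different patterns below: H2-K1 and B2m (class I chains), Psmb9 (whose start region is shared with Tap1), H2-T23 (a class I gene not called in any comparison of the bulk RNA groups), H2-M2 (nearly restricted to EpdSC) and H2-DMb1 (higher in HFSC). The sequences are those of RefSeq, GRCm38.p6, 5′ to 3′ on the gene's strand, and cover the 200 bases before the start site (slightly more for Psmb9). Capitals mark matches to the motifs searched on both strands, where overlapping matches run together.
H2-K1, chr17:34000348-34000547, minus strand: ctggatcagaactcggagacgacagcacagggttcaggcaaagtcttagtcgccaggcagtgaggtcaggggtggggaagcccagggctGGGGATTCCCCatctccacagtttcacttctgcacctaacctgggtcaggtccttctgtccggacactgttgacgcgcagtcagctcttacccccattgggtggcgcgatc
B2m, chr2:122147487-122147686, plus strand: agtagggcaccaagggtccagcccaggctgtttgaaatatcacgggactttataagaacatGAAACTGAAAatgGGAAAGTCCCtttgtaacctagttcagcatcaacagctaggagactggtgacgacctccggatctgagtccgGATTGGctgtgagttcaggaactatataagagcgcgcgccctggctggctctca
Psmb9, chr17:34187331-34187555, minus strand: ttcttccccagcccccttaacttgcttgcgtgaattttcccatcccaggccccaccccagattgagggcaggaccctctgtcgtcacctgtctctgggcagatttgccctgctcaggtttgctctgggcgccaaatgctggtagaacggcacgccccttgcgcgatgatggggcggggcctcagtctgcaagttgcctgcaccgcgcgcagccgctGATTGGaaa
H2-T23, chr17:36032702-36032901, minus strand: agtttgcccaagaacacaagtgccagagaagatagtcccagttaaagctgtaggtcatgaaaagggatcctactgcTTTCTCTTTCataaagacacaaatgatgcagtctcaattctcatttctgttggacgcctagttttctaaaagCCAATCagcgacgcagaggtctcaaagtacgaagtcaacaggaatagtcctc
H2-M2, chr17:37483555-37483754, minus strand: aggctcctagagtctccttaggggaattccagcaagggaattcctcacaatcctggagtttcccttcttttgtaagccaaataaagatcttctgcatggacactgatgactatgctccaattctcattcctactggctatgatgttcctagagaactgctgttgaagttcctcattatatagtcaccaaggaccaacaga
H2-DMb1, chr17:34152991-34153190, plus strand: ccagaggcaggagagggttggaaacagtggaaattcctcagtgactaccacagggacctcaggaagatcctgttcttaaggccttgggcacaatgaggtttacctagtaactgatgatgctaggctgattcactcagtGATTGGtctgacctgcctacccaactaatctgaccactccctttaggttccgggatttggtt

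The motifs were an interferon regulatory factor element (GAAA, any 2 bases, GAAA), a STAT element (TTC, any 3 bases, GAA), an NF-kB element (GGGA, any base, T, any 2 bases, CC) and a Y box (CCAATC), searched in the 250 bases before the start site. Of the members, 42 had a promoter in the table. The NF-kB letters were found in 9 of these 42 members and in 3.97% of 27025 genes, and the Y box in 29 of 42 and in 16.6%. The interferon regulatory factor element was found in 3 of 42 members (B2m, H2-T23 and H2-T22) and in 3.46% of genes, and the STAT element in 4 of 42 and in 8.13%. Only exact letters were counted, so a promoter without a match can still hold a variant of an element. The 9 members with the NF-kB letters were B2m, H2-K1, H2-D1, H2-Q4, H2-Q6, H2-Q7, H2-T22, H2-M3 and H2-Aa. H2-K1 and H2-D1 hold the same letters there, as do several H2-Q genes, which are near-identical copies, so these matches are not independent. Neither the H2-M2 window nor its printed part held any of the 4 motifs.

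RNA-seq libraries held 25126808 to 35905505 counts, and 21464 genes passed the filter on low counts, among them 40 of the 60 members. The other 20 members, mostly H2-M and class II genes, stayed at or under 0.393 counts per 1000000 (CPM) in every library and were not tested. Levels below are CPM, each the value of 1 library, and were not compared between genes, since they are not scaled by length. Of the markers listed for each sort, 7 of 7 HFSC genes were lower in EpdSC at both ages, 6 of them called, 5 of 7 EpdSC genes were called higher in EpdSC at both ages, and Ly6a, which encodes Sca1, was at 0.399 and 0.629 CPM in young HFSC against 133 and 218 in young EpdSC. The other 2 listed EpdSC genes ran against the list, with Sbsn called lower in EpdSC at both ages (-1.51, SE 0.142, and -0.99, SE 0.140) and Thbs1 at 24 months (-0.92, SE 0.287). In bulk samples, fewer cells of a type and less RNA per cell cannot be told apart. Nothing in the labels ties a replicate to its own mouse, and a p-value here reads only how far these libraries spread.

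At 2 months, class I presentation genes were far higher in EpdSC than in HFSC. H2-K1, a classical heavy chain, stood at 172 and 205 CPM in young HFSC and at 1291 and 1342 in young EpdSC. H2-D1, the other classical heavy chain, stood at 161 and 214 CPM against 963 and 1037. B2m, the light chain, stood at 282 and 307 CPM against 1508 and 1481. No library of the one population overlapped the other for these 3 genes, and the log2 differences were 2.80 (SE 0.314), 2.41 (SE 0.284) and 2.34 (SE 0.264), each called by edgeR's quasi-likelihood test, with adjusted p-values of 4.00e-05, 5.74e-05 and 4.15e-05. Of the 40 tested members, 25 were called higher in EpdSC and 1 lower, where 13.0% of all tested genes were called higher and 13.1% lower (Benjamini-Hochberg adjusted p under 0.05 over all genes). The median log2 difference was 1.57 over the members and -0.06 over all genes. Both EpdSC libraries lay above both HFSC ones in 28 members and below in 3, where 29.8% and 32.6% of genes did so.

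The transactivator Nlrc5 showed one of the widest gaps. Its levels were 19.9 and 20.6 CPM in young HFSC and 263 and 234 in young EpdSC, a log2 difference of 3.62 (SE 0.217, adjusted p = 2.80e-07 by edgeR). All 5 proteasome members were called higher in EpdSC. Psmb8, an immunoproteasome subunit, was at 3.63 and 4.60 CPM against 39.0 and 42.1, and Psmb9, another, at 2.20 and 4.48 against 24.5 and 31.0. Their log2 differences were 3.30 (SE 0.309) and 3.06 (SE 0.360), against 1.24 (SE 0.263) for Psmb10, 1.14 (SE 0.199) for Psme2 and 0.79 (SE 0.158) for Psme1.

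Among the 7 members of the peptide-loading machinery, 4 were called higher in EpdSC. Tap1, a transporter subunit, was at 36.2 and 55.7 CPM in young HFSC and at 200 and 192 in young EpdSC, a log2 difference of 2.10 (SE 0.265). Tap2, its partner, stood at 16.3 and 27.2 CPM against 28.3 and 32.3, a difference of 0.48 (SE 0.236) that was not called (adjusted p = 0.173 by edgeR). The difference between Tap1 and Tap2 was not tested. Tapbpl, Erap1 and Tapbp gave 1.33 (SE 0.202), 1.02 (SE 0.153) and 0.59 (SE 0.171), the last of which was not called without young HFSC replicate 1, where it was 0.49, or without either young EpdSC library (0.62 and 0.59). The chaperone Calr (0.14, SE 0.228) and the disulfide isomerase Pdia3 (0.43, SE 0.181) were not called.

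Class Ib genes split into those with a wide gap and those without one. H2-Q4, H2-Q5, H2-Q6 and H2-Q7, genes of the class Ib group, were at 17.3 and 18.9, 2.46 and 1.42, 15.98 and 15.03, and 8.56 and 7.91 CPM in young HFSC. In young EpdSC they were at 105 and 103, 15.6 and 20.3, 114 and 125, and 100 and 97.5 CPM. Their log2 differences ran from 2.53 (SE 0.255, H2-Q4) to 3.59 (SE 0.346, H2-Q7), and all 4 were called. H2-M3, which presents formylated peptides, was at 2.13 and 3.66 CPM against 17.6 and 14.7 (2.48, SE 0.341). H2-T22 was at 24.2 and 31.2 against 74.1 and 71.8 CPM and H2-T10 at 2.23 and 1.61 against 12.5 and 10.3, both called higher (1.40, SE 0.171, and 2.56, SE 0.274). H2-T23, the mouse Qa-1 gene whose product engages NK cell receptors, stayed outside this pattern, with 115 and 121 CPM in young HFSC and 108 and 97.2 in young EpdSC (-0.21, SE 0.157, adjusted p = 0.401 by edgeR). RefSeq lists H2-Q5, H2-T10 and H2-K2 as transcribed pseudogenes, and they are counted among the class Ib genes here. Near-identical members such as H2-Q6 and H2-Q7 or H2-T10 and H2-T22 can share reads, so how the counts are split within such pairs is uncertain.

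H2-M2, a class Ib gene, was close to absent from HFSC. The 2 young HFSC libraries held 2 counts of it in all, against 1086 in the 2 young EpdSC libraries, and the 2 aged HFSC libraries held 28 against 1264 in aged EpdSC. Levels were 0 and 0.0787 CPM in young HFSC and 18.5 and 15.0 in young EpdSC, a ratio of 468 with a 95% exact interval of 129 to 3866 that covers counting error only. In aged libraries they were 0.604 and 0.329 CPM in HFSC and 24.5 and 15.3 in EpdSC, a ratio of 43.1 (29.7 to 65.1).

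Class II chains were scarce in both populations and higher in EpdSC. H2-Aa stood at 0.233 and 1.34 CPM in young HFSC against 7.41 and 8.29 in young EpdSC, H2-Ab1 at 0.699 and 0.826 against 6.21 and 5.76, and H2-Eb1 at 0.0999 and 1.57 against 5.79 and 6.94. Cd74, the invariant chain, stood at 0.732 and 3.42 CPM against 13.3 and 13.0. All 4 were called, with log2 differences of 3.35 (SE 0.571), 2.97 (SE 0.417), 2.96 (SE 0.759) and 2.68 (SE 0.539). Without young HFSC replicate 2 the differences of H2-Aa, H2-Eb1 and Cd74 were 5.04, 5.93 and 4.15, and without young HFSC replicate 1 they were 2.58, 2.04 and 1.97, with all 3 still called. Of 11 tested marker genes of Langerhans and myeloid cells, 2 were called higher in young EpdSC, Cd207 (3.05, SE 0.964) and Tyrobp (4.15, SE 1.28), and 1 lower, Cd68 (-1.80, SE 0.416). The summed level of the 12 listed markers was 8.19 and 9.24 CPM in young HFSC and 6.59 and 7.93 in young EpdSC. The largest part of the HFSC sums was Cd68, at 4.56 and 4.05 CPM against 1.12 and 1.35 in young EpdSC. Of the 11 tested markers, 5 had a fitted value that was higher in EpdSC and 6 a lower one. The part of such cells in the class II levels was not tested. The class II transactivator Ciita was at 2.13 and 0.865 CPM in HFSC and 1.62 and 1.81 in EpdSC, with overlapping libraries. H2-DMb1, a chain of the loading factor, ran the other way, with 10.4 and 12.9 CPM in young HFSC and 5.18 and 5.20 in young EpdSC (-1.17, SE 0.273, adjusted p = 0.00786 by edgeR). Its call was lost without young HFSC replicate 2 (-1.003) or without young EpdSC replicate 1 (-1.15).

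**Figure D1:**
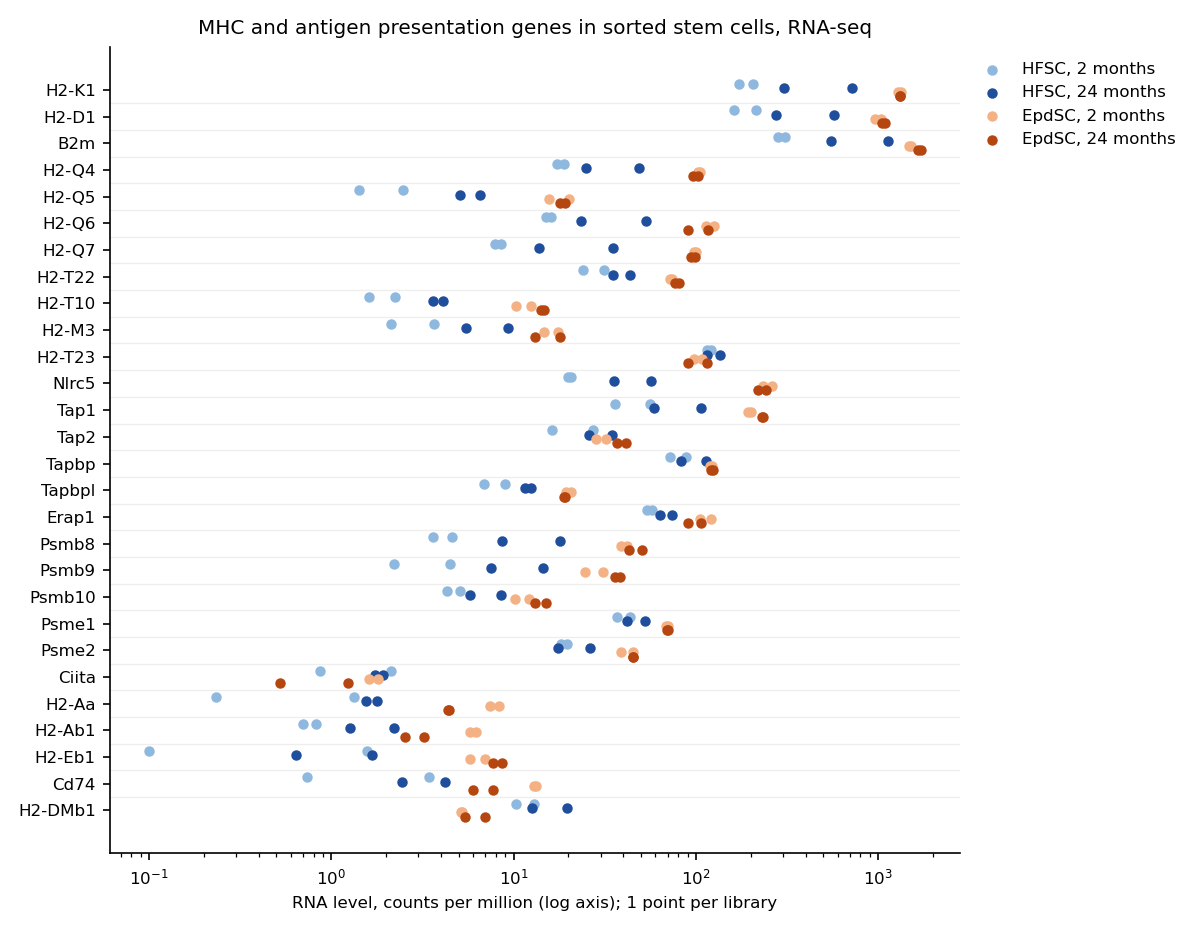
RNA level of 28 members in CPM on a log axis, with 1 point per library and colours for population and age. For class I genes such as H2-K1, B2m and Nlrc5 the young HFSC points lie lowest, the aged HFSC points between, and the EpdSC points of both ages together at the top, while H2-T23 shows 8 points close together and H2-DMb1 is higher in HFSC.

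With age, B2m, Nlrc5 and Psmb8 rose in HFSC, and most other class I genes had higher values in both aged HFSC libraries without passing the test. B2m went from 282 and 307 CPM in young HFSC to 554 and 1135 in aged HFSC, a log2 change of 1.52 (SE 0.257, adjusted p = 0.0363 by edgeR). Nlrc5 went from 19.9 and 20.6 to 35.4 and 56.6 CPM (1.19, SE 0.201, adjusted p = 0.0363 by edgeR), and Psmb8 from 3.63 and 4.60 to 8.65 and 17.9 CPM (1.69, SE 0.301, adjusted p = 0.0434 by edgeR). These 3 of 40 members were called higher and none lower, beside 0.294% and 0.0745% of all tested genes. An unadjusted p under 0.05 was found in 18 of 40 members and in 1648 of 21464 genes. Fitted changes were above 0 in 35 of 40 members and in 11132 of 21464 genes. The median change was 0.60 over the members and 0.02 over all genes. In 22 members both aged libraries lay above both young ones, and in none below, where 18.0% and 17.4% of all genes did so.

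Values of most other class I members pointed the same way, except for 3 of 15 tested class Ib genes, H2-T24 (-0.15, SE 0.314), H2-M10.2 (-0.24, SE 1.16) and H2-M5 (-0.52, SE 1.92). H2-K1 was at 172 and 205 CPM in young and 304 and 723 in aged HFSC, a difference of 1.44 (SE 0.2999, adjusted p = 0.0818 by edgeR), and H2-D1 at 161 and 214 against 276 and 576 (1.18, SE 0.273, adjusted p = 0.127 by edgeR). Psmb9 was at 2.20 and 4.48 against 7.55 and 14.4 CPM (1.73, SE 0.354), and Tap1 at 36.2 and 55.7 against 58.7 and 107 (0.85, SE 0.258). H2-Q5 was at 2.46 and 1.42 against 5.10 and 6.58 CPM (1.58, SE 0.296, adjusted p = 0.0524 by edgeR) and H2-Q7 at 8.56 and 7.91 against 13.7 and 35.3 (1.57, SE 0.328). H2-Q4 had aged values of 24.98 and 48.6 CPM (1.02, SE 0.247), H2-Q6 of 23.4 and 53.0 (1.30, SE 0.299), H2-M3 of 5.47 and 9.28 (1.36, SE 0.337), H2-T10 of 3.62 and 4.08 (1.00, SE 0.272) and H2-T22 of 35.2 and 43.7 (0.51, SE 0.169). Differences were smaller in Psmb10 (aged 5.73 and 8.49 CPM, 0.59, SE 0.263), Tapbpl (12.4 and 11.6, 0.60, SE 0.202), Tap2 (26.1 and 34.5, 0.48, SE 0.236), Erap1 (63.7 and 73.7, 0.30, SE 0.152), Tapbp (82.7 and 114, 0.29, SE 0.171), Psme1 (42.1 and 52.6, 0.24, SE 0.158) and Psme2 (17.5 and 26.1, 0.20, SE 0.198). H2-T23 was at 115 and 136 CPM in aged HFSC (0.09, SE 0.157).

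The size of the age difference rested on aged HFSC replicate 2, which lay above replicate 1 for most class I genes. Without it the changes of B2m, Nlrc5 and Psmb8 were 0.91, 0.81 and 1.08, no member was called, and Psme2 (-0.12), H2-T23 (-0.03) and H2-Eb1 (-0.34) turned their sign. With 1 library left out, the changes ran from 0.91 to 1.94 for B2m, from 0.81 to 1.475 for Nlrc5 and from 1.08 to 2.11 for Psmb8. The calls of B2m, Nlrc5 and Psmb8 were also lost without either young HFSC library, where the changes stayed at 1.44 and 1.57, 1.14 and 1.20, and 1.51 and 1.86. DESeq2 called 13 members on the same counts, and edgeR on the 4 HFSC libraries alone called none. The shares of all genes called in these fits are not given here.

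Class II genes were also scarce in aged HFSC. H2-Aa was at 1.54 and 1.78 CPM in aged HFSC, H2-Ab1 at 1.27 and 2.21, H2-Eb1 at 0.637 and 1.68 and Cd74 at 2.45 and 4.21. None was called against the young libraries. Both aged libraries lay above both young ones for H2-Ab1 (1.19, SE 0.414, adjusted p = 0.396 by edgeR) and H2-Aa (1.11, SE 0.568), while the libraries of both ages overlapped for Cd74 (0.70, SE 0.533) and H2-Eb1 (0.51, SE 0.778). Ciita, at 1.91 and 1.74 CPM, and H2-DMb1, at 12.6 and 19.7, were not called either.

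In EpdSC the class I levels of both ages lay close together. H2-K1 was at 1291 and 1342 CPM in young and 1325 and 1310 in aged EpdSC (0.00067, SE 0.293), B2m at 1508 and 1481 against 1724 and 1657 (0.18, SE 0.251), H2-D1 at 963 and 1037 against 1052 and 1092 (0.10, SE 0.269), and Nlrc5 at 263 and 234 against 242 and 218 (-0.11, SE 0.193). By edgeR none of 40 members was called in either direction, beside 0.0559% of genes higher and 0.0280% lower. An unadjusted p under 0.05 was found in 1 member and in 957 of 21464 genes. DESeq2 and every other setting run also called none. The median change was 0.0010 over the members and 0 over all genes, with 21 values above and 19 below 0. Both aged libraries lay above both young ones in 12 members and below in 9, where 17.1% and 15.1% of genes did so.

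The member with the unadjusted p under 0.05 was a class II chain. H2-Ab1 was at 6.21 and 5.76 CPM in young and 3.22 and 2.54 in aged EpdSC (-1.05, SE 0.376, adjusted p = 0.951 by edgeR). H2-Aa was at 7.41 and 8.29 against 4.42 and 4.36 CPM (-0.84, SE 0.499) and Cd74 at 13.3 and 13.0 against 6.00 and 7.68 (-0.94, SE 0.496). Both aged libraries lay below both young ones for these 3 genes, whereas H2-Eb1 was at 5.79 and 6.94 against 7.76 and 8.59 CPM. The transactivator Ciita was also lower in both aged libraries, at 1.62 and 1.81 against 1.24 and 0.521 CPM (-0.96, SE 0.581), and was not called. The Langerhans and myeloid markers Tyrobp (0.971 and 1.02 CPM young, 0.185 and 0.423 aged) and Fcer1g (0.765 and 0.625, 0.247 and 0.195) were lower in the same aged libraries, while Cd207 was at 0.824 and 0.987 against 0.680 and 0.912. The summed marker list was at 6.59 and 7.93 against 6.65 and 8.99 CPM, with Cd68 at 1.12 and 1.35 against 1.55 and 2.31. The part of such cells in the class II values was not tested.

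The difference between the age effects was tested as an interaction. By edgeR no member was called, beside 0.00466% of genes higher in HFSC and 0% lower. An unadjusted p under 0.05 was found in 17 of 40 members and in 980 of 21464 genes. DESeq2 called 5 members, and its share of all genes is not given here. The interaction was 1.44 (SE 0.418, adjusted p = 0.630 by edgeR) for H2-K1, 1.34 (SE 0.357) for B2m, 1.30 (SE 0.279, adjusted p = 0.277 by edgeR) for Nlrc5, 1.48 (SE 0.404) for Psmb8 and 1.08 (SE 0.382) for H2-D1. It was 1.94 (SE 0.756) for H2-Aa and 2.24 (SE 0.559) for H2-Ab1. Of 40 members 38 had a positive value, as did 11059 of 21464 genes, with a median of 0.69 against 0.01 over all genes. The interaction reads the same libraries as both age comparisons.

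At 24 months the gap between the populations was narrower in fitted values and still called for most class I genes. Of 40 members, 21 were called higher in EpdSC and 1 lower, where 12.2% and 11.9% of genes were called, and the median was 0.98 against -0.09 over all genes. Both EpdSC libraries lay above both HFSC ones in 27 members and below in 5, where 28.8% and 33.8% of genes did so. The log2 difference was 1.36 (SE 0.299) for H2-K1, 1.33 (SE 0.274) for H2-D1, 1.00 (SE 0.254) for B2m, 2.32 (SE 0.204) for Nlrc5, 1.82 (SE 0.284) for Psmb8, 1.75 (SE 0.331) for Psmb9 and 1.49 (SE 0.259) for Tap1. The aged EpdSC levels behind these were 1325 and 1310, 1052 and 1092, 1724 and 1657, 242 and 218, 43.0 and 50.9, 38.2 and 35.8, and 230 and 234 CPM, and no aged HFSC library reached them. These sizes depended on which aged HFSC library was kept. Without replicate 1 the differences of H2-K1, H2-D1 and B2m were 0.87, 0.90 and 0.58, and without replicate 2 they were 2.18, 2.02 and 1.67, all still called. With 1 library left out, Psmb8 ran from 1.40 to 2.50, Psmb9 from 1.36 to 2.35, Tap1 from 1.13 to 2.04, H2-Q6 from 0.97 to 2.20 and H2-Q7 from 1.45 to 2.87. H2-Q4, H2-Q5, H2-Q6, H2-Q7, H2-T22, H2-T10 and H2-M3 stayed called higher, by 1.43, 1.66, 1.44, 1.98, 1.00, 1.90 and 1.08, while Tapbp, H2-Aa, H2-Ab1 and Cd74 were not called at this age (adjusted p = 0.222, 0.0766, 0.217 and 0.181 by edgeR). Without aged HFSC replicate 1, the calls of Psmb10, H2-Eb1, H2-M3, Erap1, Tapbpl and Psme1 were lost, with values of 0.74, 2.29, 0.75, 0.43, 0.72 and 0.41. Without aged EpdSC replicate 1, those of Psmb10 (0.90), H2-M3 (0.86), Erap1 (0.43), Tapbpl (0.68) and Psme1 (0.58) were lost. Tapbpl also lost its call without aged HFSC replicate 2 (0.67) or aged EpdSC replicate 2 (0.71), and Psme1 without the latter (0.60). H2-DMb1 was again lower in EpdSC (-1.38, SE 0.272, adjusted p = 0.00287 by edgeR). Both EpdSC libraries also lay below both HFSC ones for Ciita, which was not called (-1.05, SE 0.582, adjusted p = 0.236 by edgeR). These comparisons share the libraries of the age comparisons and are no separate evidence for them.

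**Figure D2:**
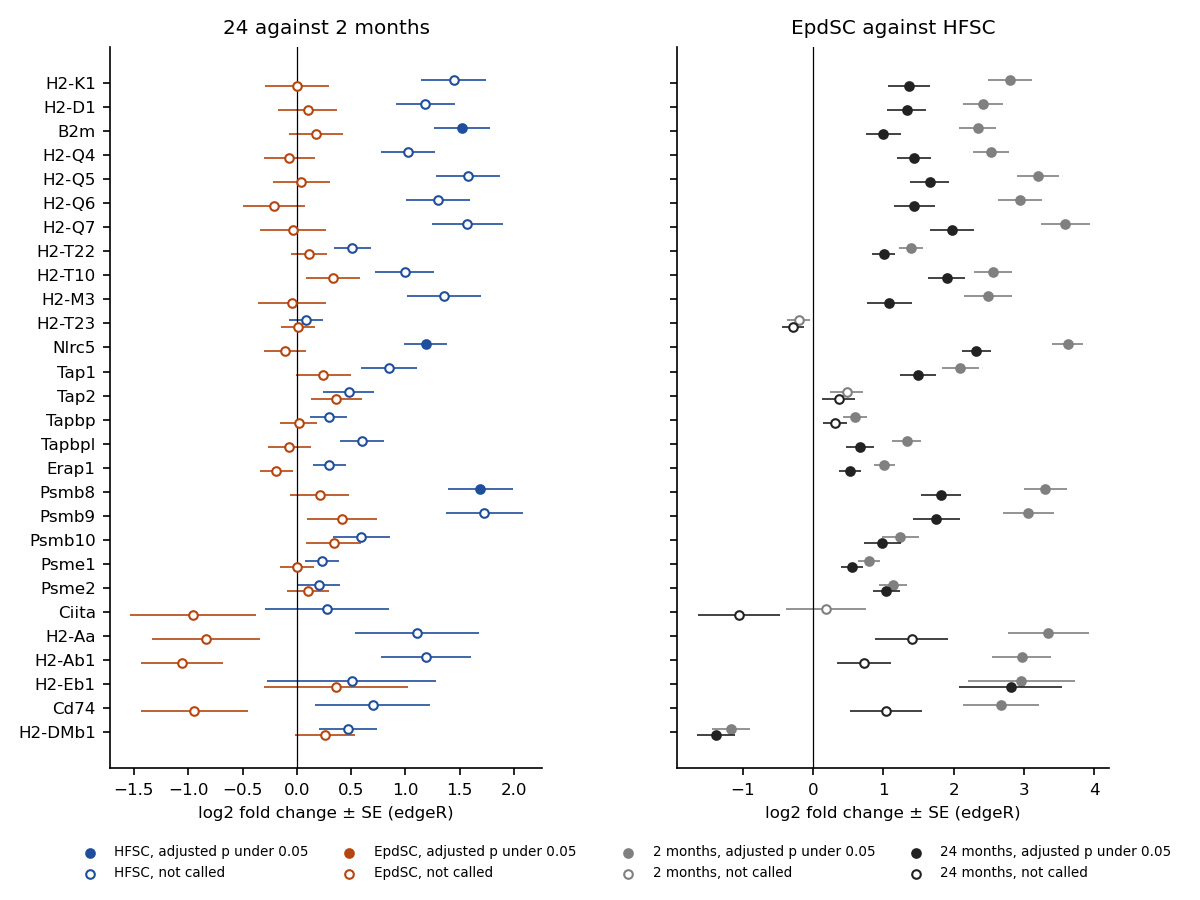
Log2 fold change with its standard error for 28 members, from 1 edgeR fit, with 24 against 2 months on the left (blue HFSC, orange EpdSC) and EpdSC against HFSC on the right (grey 2 months, black 24 months). Filled points passed an adjusted p under 0.05. On the left B2m, Nlrc5 and Psmb8 in HFSC are the filled points, and on the right most class I genes are filled at both ages.

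Set against the EpdSC mean of the same age, B2m in HFSC was at 18.8% and 20.6% in young and at 32.8% and 67.1% in aged libraries. H2-K1 was at 13.1% and 15.6%, then 23.05% and 54.9%, and Nlrc5 at 7.99% and 8.27%, then 15.4% and 24.6%. Of the 7 listed EpdSC markers measured in the same way, 6 were at a higher percentage in aged than in young HFSC libraries and Sbsn was at a lower one. Ly6a was at 0.228% and 0.359% of EpdSC in young HFSC and at 0.930% and 1.22% in aged, Krt1 at 0.365% and 2.44%, then 4.14% and 5.24%, Krt10 at 1.495% and 6.71%, then 9.70% and 12.1%, and Ly6d at 1.16% and 2.29%, then 4.54% and 6.30%. Krtdap was at 7.58% and 17.1%, then 21.0% and 27.6%, a range that overlaps that of aged Nlrc5. Thbs1 was at 143% and 117%, then 160% and 218%, and Sbsn at 281% and 290%, then 182.5% and 215%. The member H2-M2 was at 0% and 0.469%, then 3.03% and 1.65%. Of the 7 markers listed for EpdSC, 1 was called higher in aged HFSC, Ly6d (2.12, SE 0.276), and the sum of the list was 888 and 841 CPM in young and 1413 and 1892 in aged HFSC. Most of this sum is Thbs1 (743 and 605 CPM in young HFSC, 1058 and 1446 in aged).

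Other cell types' markers in HFSC were as follows. The Langerhans and myeloid list summed to 8.19 and 9.24 CPM in young and 9.79 and 7.57 in aged HFSC, with Lyz2 at 0 in all 4 libraries. Its largest part was Cd68, at 4.56 and 4.05, then 3.35 and 2.07 CPM, while 7 of its 11 tested genes had fitted changes above 0. The T and NK cell list summed to 2.46 and 2.24, then 2.55 and 3.55 CPM. None of the tested genes of either list was called with age. The sebaceous list summed to 117 and 139, then 281 and 363 CPM, with 1 of 5 genes called higher (Far2, a name given after its value was seen), and the melanocyte list to 15.4 and 16.8, then 29.4 and 31.2 with none called. The fibroblast list summed to 56.4 and 80.1, then 84.5 and 52.3 CPM in HFSC and to at most 5.92 in EpdSC. Most of the HFSC sum was Col1a2, at 43.7 and 61.5, then 75.6 and 44.5 CPM. Col1a1 was at 9.79 and 16.8, then 4.49 and 3.92 CPM, and Col3a1, Pdgfra, Lum and Dcn were at or under 2.07 in HFSC. The part of epidermal, sebaceous or melanocyte RNA in the class I differences was not tested.

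**Figure D3:**
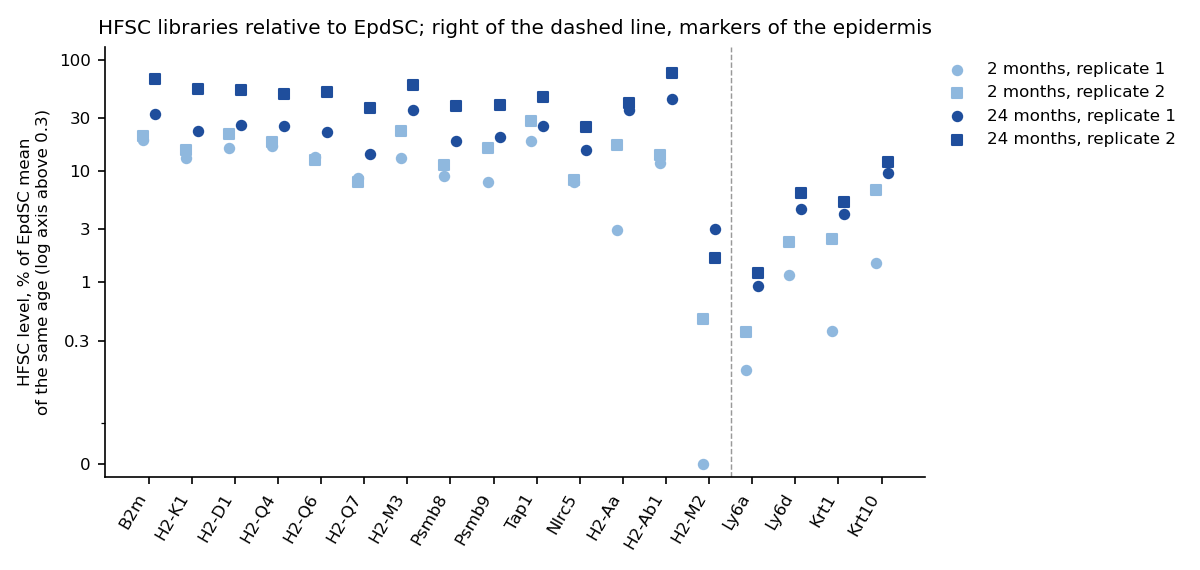
Level of each gene in the HFSC libraries as a percentage of the EpdSC mean of the same age, on an axis that is logarithmic above 0.3, with light points for 2 months and dark points for 24 months. B2m is at 18.8% and 20.6% in young and at 32.8% and 67.1% in aged HFSC. Among the plotted EpdSC markers, aged HFSC values reach 1.22% for Ly6a, 5.24% for Krt1, 6.30% for Ly6d and 12.1% for Krt10. The listed EpdSC markers that are not plotted lie at higher percentages in aged HFSC than these plotted ones. Krtdap is at 21.0% and 27.6%, Thbs1 at 160% and 218%, and Sbsn at 182.5% and 215%. For Sbsn this is below its young HFSC values of 281% and 290%.

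Of 41 further genes of the pathway (regulators, other proteasome subunits, chaperones, class II proteases, ligands and costimulators), 39 were tested. In HFSC 1 was called higher with age (0.294% of all genes were), Irf1, an interferon-regulated transcription factor of class I genes, from 8.32 and 7.67 to 17.5 and 16.4 CPM (1.09, SE 0.183, adjusted p = 0.0363 by edgeR). Its call was lost when any 1 HFSC library was left out, with changes of 1.01 to 1.13. In EpdSC none was called with age by edgeR. Between populations at 2 months 8 of the 39 were called higher in EpdSC and 2 lower, where 13.0% and 13.1% of all genes were. The lower ones were Rfxank (-0.72, SE 0.215) and Mr1 (-0.49, SE 0.162). Rfxank lost its call without any 1 of the 4 young libraries (-0.74 to -0.66), and Mr1 without any 1 of the 8 libraries (-0.54 to -0.42). The interferon-γ receptor chain Ifngr1 stood at 18.2 and 30.7 CPM in young HFSC and 335 and 395 in young EpdSC (3.90, SE 0.235), its partner Ifngr2 at 15.5 and 18.7 against 34.1 and 33.6 (0.98, SE 0.211), and the kinase Jak1 at 162 and 160 against 309 and 269 (0.85, SE 0.135). Irf1 (1.77, SE 0.184), the NKG2D ligand Ulbp1 (3.20, SE 0.452), Canx (0.50, SE 0.153), Hspa5 (0.72, SE 0.196) and Ifi30 (0.79, SE 0.174) were the others. Canx lost its call without either young HFSC library (0.49 and 0.54), young EpdSC replicate 1 (0.42) or aged EpdSC replicate 1 (0.49), and Hspa5 without young HFSC replicate 1 (0.56) or young EpdSC replicate 1 (0.65). At 24 months 4 of the 39 were called higher and none lower, where 12.2% and 11.9% of all genes were: Ifngr1 (3.66, SE 0.233), Jak1 (0.84, SE 0.135), Irf1 (0.75, SE 0.177) and Ulbp1 (2.64, SE 0.384). Irf1 lost that call without aged EpdSC replicate 1 (0.69). The 5 other proteasome genes were not called in any of the 4 comparisons.

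Open chromatin was read as ATAC-seq counts in 500-base windows within 1000 bases of the RefSeq start site. The young libraries totalled 26169738 (HFSC) and 37322834 counts (EpdSC), the aged ones 8243611 (HFSC) and 22933001 (EpdSC). With 1 library per group there is no replicate check and no test, intervals are 95% and cover counting error only, and ratios are those of the library totals. At 2 months the median log2 ratio of EpdSC over HFSC was 0.44 over the 30 RNA-tested members with a promoter and 0.05 over 23272 genes. Of these 30, 11 were at least 2-fold higher in EpdSC and none 2-fold lower, where 10.7% and 7.66% of genes were. Over all 41 members with a promoter and enough counts, 12 were 2-fold higher, none lower, and the median was 0.39.

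Single promoters differed in how far this went. H2-M2 held 17 counts in young HFSC and 251 in young EpdSC, and 6 against 169 in the aged libraries. H2-Q7 held 40 against 259, Psmb8 263 against 793, H2-Eb1 79 against 419 and H2-M3 179 against 524. The promoters of B2m (454 against 1073), H2-K1 (359 against 716) and H2-D1 (417 against 757) differed less, by log2 ratios of 0.73 (0.57 to 0.89), 0.48 (0.30 to 0.67) and 0.35 (0.17 to 0.52), against 3.33 (2.66 to 4.17) for H2-M2, 2.17 (1.70 to 2.70) for H2-Q7 and 1.08 (0.88 to 1.29) for Psmb8. The region shared by Tap1 and Psmb9 held 592 and 1001 counts, a ratio of 0.25 (0.10 to 0.39). The promoter of H2-T23, which was not called between the populations in bulk RNA, held 233 and 373 counts (0.17, -0.07 to 0.41), and H2-DMb1 143 and 176 (-0.21, -0.54 to 0.12). H2-Aa, with 82 and 119 counts, had a ratio of 0.02 (-0.39 to 0.45), Tapbp, with 767 and 973, of -0.17 (-0.31 to -0.03), and H2-DMa, the other chain of the loading factor, with 530 and 510, of -0.57 (-0.75 to -0.39).

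With age the median promoter ratio of the members lay near that of all genes. In HFSC the median log2 ratio of aged over young was -0.69 over 29 members and -0.64 over all genes, and the aged library was the shallowest of the 4. None of the 29 was 2-fold higher and 4 were 2-fold lower, where 5.46% and 21.0% of genes were. Over all 33 members with enough counts the median was -0.63, with 2 that were 2-fold higher and 4 lower. B2m held 454 counts in young and 103 in aged HFSC (-0.47, -0.80 to -0.16), H2-K1 359 and 86 (-0.39, -0.75 to -0.05) and Psmb8 263 and 58 (-0.50, -0.95 to -0.10). In EpdSC the median was 0.10 over 30 members and 0.07 over all genes, with none 2-fold higher and 1 lower, beside 2.35% and 4.03%. At 24 months 21 of 29 members were at least 2-fold higher in EpdSC, where 41.4% of all genes were and 6.91% were 2-fold lower, and the medians were 1.34 and 0.87.

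**Figure D4:**
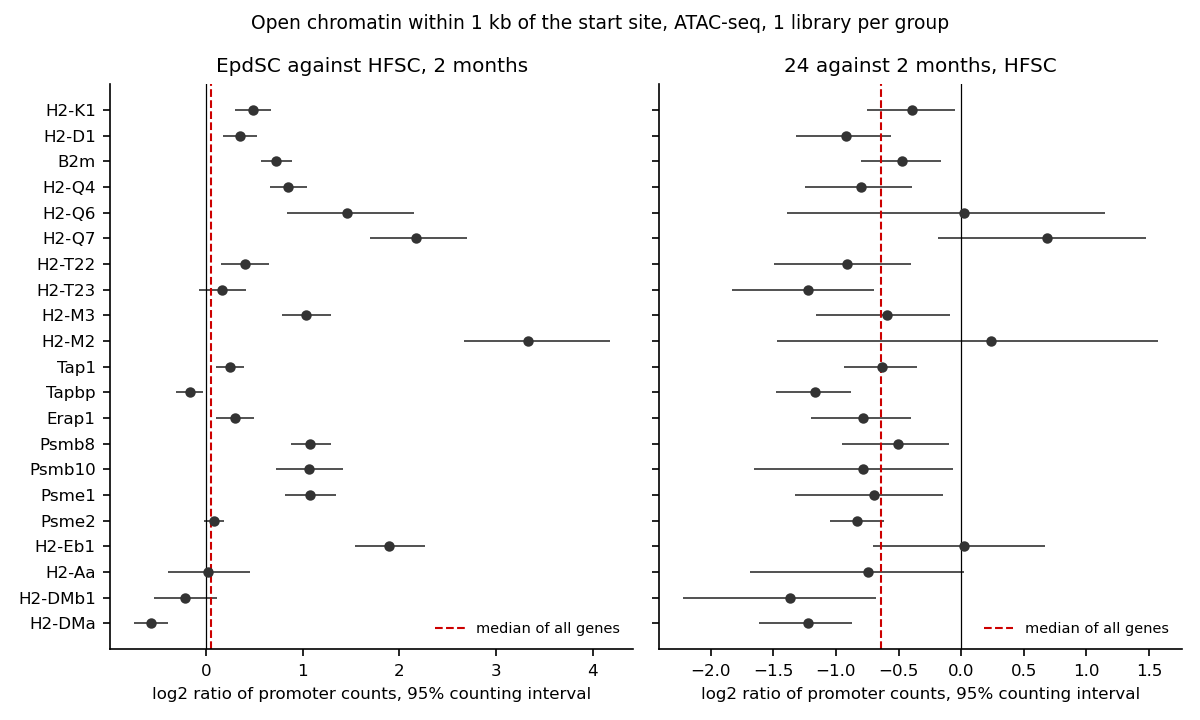
Log2 ratio of ATAC-seq promoter counts, scaled by library totals, with 95% counting intervals for 21 members, EpdSC over HFSC at 2 months on the left and aged over young HFSC on the right, 1 library per group. The dashed line is the median of all genes. On the left H2-M2 (3.33), H2-Q7 and H2-Eb1 lie farthest to the right, and on the right most members lie around the dashed line at -0.64.

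The single-cell libraries were read at the 2 sort markers. After filters on depth, 4038 young and 4469 aged barcodes were kept, with 33 barcode sequences present in both, and no doublet caller was run. Barcodes with at least 1 unique molecular identifier (UMI) of Cd34 and none of Ly6a numbered 215 young and 79 aged, with median depths of 2500 and 1454 UMIs. Those with Ly6a and without Cd34 numbered 2066 and 1872, with median depths of 4440 and 2630. Both ages of the Cd34 barcodes carried follicle markers. Lhx2 was at 363 and 277 UMI counts per 1000000 (CPM) in young and aged Cd34 barcodes, against 4.19 and 4.43 in Ly6a barcodes. With 1 library per age no test was made, and intervals are exact 95% ones for counting error only.

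In Cd34 barcodes class I was higher in the aged library. The 24 class I heavy chains and B2m together, the genes of this set present in the 10x gene list, gave 2530 CPM (2404 to 2660) in young and 4971 (4600 to 5364) in aged Cd34 barcodes, a ratio of 1.97 (1.79 to 2.15). B2m gave 1271 and 2669 CPM, a ratio of 2.10 (1.85 to 2.38), H2-D1 a ratio of 1.98 (1.60 to 2.43) and H2-K1 of 1.59 (1.25 to 2.00). Psmb8, with 30 and 8 UMIs, had a ratio of 1.19 (0.473 to 2.66), H2-Q7, with 56 and 12, of 0.959 (0.468 to 1.81), and Calr, with 214 and 32, of 0.669 (0.446 to 0.973). Members with at least 20 UMIs over the pair numbered 17, of which 13 were higher in the aged library, 3 by 2-fold or more and none lower by as much, where 5.58% and 6.85% of genes were. The median log2 ratio was 0.67 over these members and 0.05 over all genes. H2-T23 was also higher there, at 64 young and 40 aged UMIs, a ratio of 2.80 (1.84 to 4.22). With each barcode thinned to 1500 UMIs, the median class I count was 2 in 201 young and 7.5 in 36 aged Cd34 barcodes, and 14 and 43 shallower barcodes were left out. Without thinning it was 1.495 and 4.3 per 1000 UMIs. Of the listed epidermal genes other than Ly6a, 4 were higher in the same aged barcodes, Krt1 at 184 and 620, Krt10 at 608 and 964, Ly6d at 603 and 1069 and Thbs1 at 58.5 and 224 CPM. Krtdap (715 and 299) and Sbsn (767 and 718) were lower, and their part in the class I ratio was not tested. Myeloid and T cell markers gave at most 2 UMIs a gene in young and none in aged Cd34 barcodes.

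In Ly6a barcodes the ratio went the other way. Class I gave 7943 CPM (7888 to 7999) in the young and 6362 (6295 to 6430) in the aged library, a ratio of 0.801 (0.791 to 0.811). B2m had a ratio of 0.868 (0.852 to 0.883), H2-D1 of 0.920 (0.895 to 0.945), H2-K1 of 0.666 (0.646 to 0.686), Psmb8 of 0.660 (0.612 to 0.712), Psmb9 of 0.628 (0.568 to 0.693) and H2-Q7 of 0.503 (0.471 to 0.536). Of 31 members with enough UMIs 29 were lower in the aged library, 6 of them by 2-fold or more and none 2-fold higher, where 3.39% and 2.20% of genes were, and the median log2 ratio was -0.59 against -0.02 over all genes. Thinned to 1500 UMIs, the median class I count was 11 in 2051 young and 9 in 1745 aged barcodes. The bulk EpdSC libraries had not shown this difference. The 10x sort was wider and the depths unequal, and the part of either in this mismatch was not tested. Of the listed epidermal genes in these barcodes, Krt1 (765 and 1508 CPM), Ly6d (2578 and 3995) and Ly6a (592 and 676) were higher in the aged library, and Krt10 (2640 and 2103), Krtdap (1576 and 1294), Sbsn (302 and 216) and Thbs1 (27.7 and 23.3) lower.

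Between both kinds of barcode, the ratio of Ly6a over Cd34 for class I was 3.14 (2.98 to 3.31) in the young and 1.28 (1.19 to 1.38) in the aged library. In the young library 19 of 31 members were at least 2-fold higher in Ly6a barcodes and 1 lower, where 11.9% and 13.3% of genes were, and the median log2 ratio was 1.49 against -0.09 over all genes. In the aged library 9 of 29 members were at least 2-fold higher in Ly6a barcodes and 4 lower, and the shares of all genes are not given here. A ratio above 1 was found in 16 of these 29 members, with a median log2 ratio of 0.09 against -0.14 over all genes. H2-DMb1 was lower in Ly6a barcodes at both ages, with ratios of 0.420 (0.270 to 0.682) and 0.211 (0.106 to 0.480), as in the bulk libraries. H2-T23 had a ratio of 0.945 (0.734 to 1.24) in the young and of 0.334 (0.242 to 0.472) in the aged library.

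**Figure D5:**
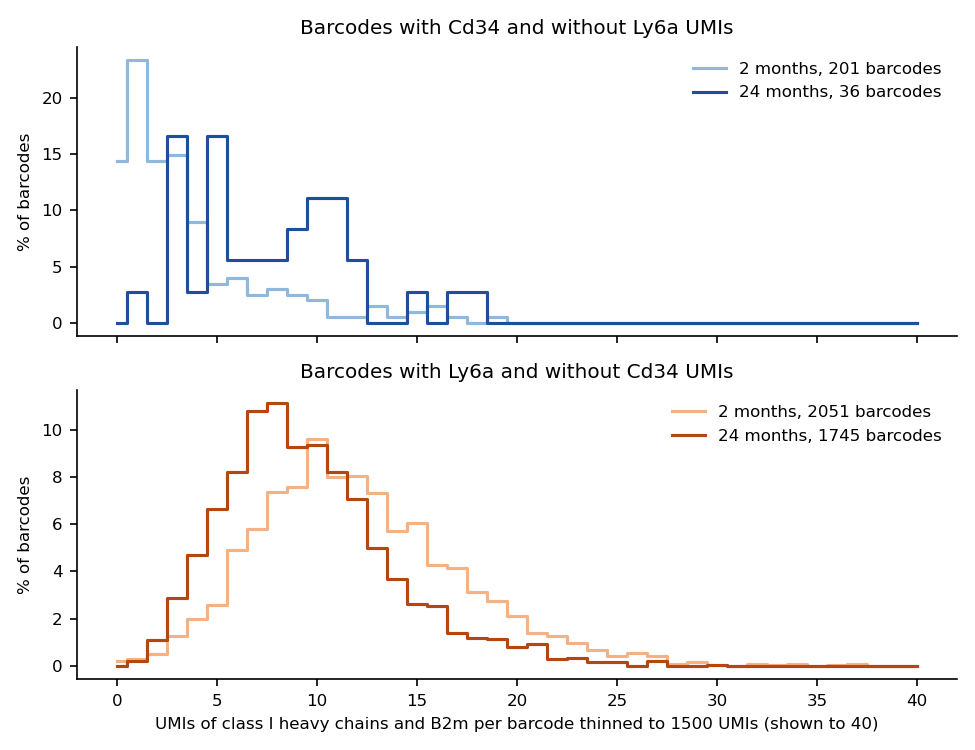
Share of barcodes by their number of class I UMIs (heavy chains and B2m), after thinning each barcode to 1500 UMIs, for barcodes with Cd34 and without Ly6a (top) and with Ly6a and without Cd34 (bottom), 2 months light and 24 months dark. The young Cd34 barcodes peak at 1 UMI with a median of 2, the 36 aged ones have a median of 7.5, and the Ly6a medians are 11 and 9.

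H2-M2 was read in a small share of young Ly6a barcodes. It gave 293 UMIs in 122 of 2066 of them (5.91%, exact 95% interval 4.93% to 7.01%) and none in 215 young Cd34 barcodes, where 3 counts of the total give a limit of 1.4% and the exact interval one of 1.70%. In the aged library it gave 28 UMIs in 22 of 1872 Ly6a barcodes and none in 79 Cd34 barcodes, with limits of 3.8% and 4.56%. These limits are on barcodes with a UMI, not on cells that express the gene, and the Cd34 barcodes were the shallower ones at both ages (median 2500 against 4440 and 1454 against 2630 UMIs). Over all young barcodes 374 UMIs lay in 164, and 22 barcodes with 5 or more held 168 of them. The aged over young ratio in Ly6a barcodes was 0.173 (0.113 to 0.255), whereas the bulk EpdSC levels of 18.5 and 15.0 CPM in young and 24.5 and 15.3 in aged libraries overlapped.

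Class II UMIs were few and spread. The class II chains and Cd74 gave 73.6 CPM in young and 41.2 in aged Ly6a barcodes, a ratio of 0.559 (0.479 to 0.651), with 0.345 (0.216 to 0.532) for H2-Ab1, 0.416 (0.287 to 0.589) for H2-Aa, 0.379 (0.273 to 0.517) for Cd74 and 1.08 (0.846 to 1.38) for H2-Eb1. The Cd34 barcodes held 8 and 2 class II UMIs in all. Barcodes with a UMI of any of 7 immune markers (Ptprc, Cd207, Tyrobp, Fcer1g, Cd3e, Cd3d and Cd3g) made up 3.94% of young and 1.61% of aged barcodes and held 13.3% and 4.46% of all class II UMIs. In the young library 9 barcodes had 10 or more class II UMIs and together held 12.8% of them, and 1 of these 9 carried an immune marker UMI. In the aged library none had as many.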

How the data were processed

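The members and gene lists were chosen with earlier results of these data known. Per the labels' protocols, cells were sorted after trypsin digestion, RNA libraries were made with TruSeq and 10x libraries with the 3' v2 kit. Deposited by the authors were counts of reads per gene (RNA-seq) and per window (ATAC-seq) and counts of UMIs per barcode (10x), with no normalization. The submitters' processing notes name STAR, Bowtie, Cell Ranger and mm10. How strand, duplicates and read shifts were handled is not stated there, so antisense or near-identical genes can share counts.

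The RNA test was the edgeR 4.0.16 quasi-likelihood one, run in R 4.3.3 (trimmed mean of M values, filterByExpr, 1 fit of 8 libraries with a term per group, common biological coefficient of variation 0.277), with Benjamini-Hochberg adjustment over 21464 genes and a threshold of 0.05. SE is the fold change over the square root of F, and every adjusted p comes from this fit unless DESeq2 1.42.0 is named. The script was tested on simulated data. Values in every library were given for 15 core members and for up to 12 others called in any population or age comparison. H2-T23, further called members and single genes of the other lists were named after their values were seen.

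ATAC-seq windows of 500 bases that do not overlap, on the autosomes and X, were summed within 1000 bases of the start site, with a pseudocount of 0.5 and at least 20 counts over a pair. In 10x data, barcodes needed 500 genes, at most 10% mitochondrial UMIs and the 99th percentile of the 4000 deepest barcodes divided by 10, which kept 4038 and 4469 of 737280. Bulk reads carry no molecular identifier, so they do not count independent molecules, and intervals cover counting error only. Alternatives were other tools, filters, windows, gates and leaving out each replicate.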

Additional observations from a re-analysis of the deposited data

Results flagged for a closer look

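The summed 10x level of class I heavy chains and B2m moved with age in opposite directions in the 2 kinds of barcode. The aged over young ratio was 1.97 in barcodes with Cd34 and without Ly6a and 0.801 in those with Ly6a and without Cd34. The difference between both ratios was not tested, since each age has 1 library, and the aged Cd34 barcodes numbered 79 with the lowest median depth.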

How the results depend on the processing

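The count of members called with age in HFSC, 3 in the reported fit, was 13 with DESeq2, 13 without a filter on low counts, 1 where genes needed 1 CPM in 2 libraries, 0 on the 4 HFSC libraries alone and 0 to 12 when 1 replicate was left out. The labels do not state whether same-numbered replicates were paired, and the sample names number all replicate 1 RNA libraries before the replicate 2 ones. Same-numbered deviations correlated at 0.0501 to 0.201 between the groups compared, but 2 libraries per group cannot settle the pairing. With a replicate block 7 members were called. The interaction count, 0 in the reported fit, was 5 with DESeq2, 12 without the filter and 0 to 8 with 1 replicate left out. The counts for EpdSC with age and for both population comparisons stayed within 1.5 times under all settings run. How many of all genes each setting called is not given here, so these counts have no background beside them. With 1 replicate left out, the HFSC age change of H2-Eb1 ran from -0.46 (-0.34 in the other reversal) to 3.47, of Cd74 from -0.059 to 2.16, of Ciita from -0.24 to 1.05, of Psme2 from -0.12 to 0.45 and of H2-T23 from -0.032 to 0.19. The ATAC medians kept their direction at 500 and 2000 bases, a pseudocount of 5 and a minimum of 50 counts. The 10x log2 ratio in Cd34 barcodes, 0.97, was 0.66 at no more than 5% mitochondrial UMIs and 1.14 with at least 2 UMIs of the gating gene. In Ly6a barcodes, -0.32, it was -0.34 at 1000 genes and -0.36 with at least 2 gating UMIs. The cause of these shifts was not tested. Depth limits the 79 aged Cd34 barcodes and the aged HFSC ATAC library.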

Other observations

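The young 10x barcodes with H2-M2 were described further, after the values had been seen and with no test. Of genes with at least 60 UMIs in these 164 barcodes, the 8 with the highest ratio to the other barcodes of the library were Ccl20, Guca2a, Epgn, Icam1, Mill1, Relb, Psmb10 and Dsg2. The filter read the H2-M2 barcodes only, so it favoured genes that were high in them. The first 8 were picked by the same ratio, so their ratios lean high, and the counting intervals do not cover this choice. Ccl20, a chemokine, was at 100.3 UMI counts per 1000000 (CPM) against 3.01, a ratio of 33.3 (counting interval 22.98 to 48.6). Icam1, an adhesion molecule, had a ratio of 4.71 (3.58 to 6.14), Mill1, an MHC class I-like gene, of 4.67 (3.67 to 5.90), and Relb, an NF-kB subunit, of 3.92 (3.01 to 5.05). Among the members, Psmb10 had a ratio of 3.31 (2.69 to 4.04), Tapbp of 2.44 (2.01 to 2.94), Psmb8 of 2.27 (2.04 to 2.53), B2m of 1.35 (1.30 to 1.39) and Tap1 of 1.11 (0.881 to 1.37). The barcodes with H2-M2 had a median of 4450.5 UMIs and the others of 3903, and 22 of them held 168 of the 374 H2-M2 UMIs. These ratios describe few barcodes of 1 library.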
